A study of Mus musculus with 6 samples.

Results

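The Hox cluster genes are the 38 of 38926 rows of the deposited expression table whose symbol is Hox, a cluster letter from a to d and a number. HoxA holds 11 of them, HoxB 10, HoxC 9 and HoxD 8. They were measured by RNA sequencing in LSK cells of mouse bone marrow, which lack lineage markers, carry Sca-1 and Kit on their surface and include the haematopoietic stem cells. The haloperidol group is 3 libraries from C57BL/6 mice injected with haloperidol, an antipsychotic and dopamine receptor blocker, and the DMSO group is 3 libraries from mice of the same strain injected with DMSO, a solvent. In both groups the mice were 8 to 12 weeks old, the injections ran over 3 consecutive days, femur and tibia were crushed and digested with collagenase, and the drug or the solvent was still present while the cells were sorted. The labels name no further allele or agent, and they leave unsaid whether each replicate was another mouse, so a p-value here covers only how these samples vary, possibly for technical reasons. They give no sort or sequencing date, and the treatment cannot be told apart from any batch that went with it.

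Hox genes encode homeodomain transcription factors that lie in clusters, in the order in which they are used along the body axis. Within a cluster, low numbers sit at the 3′ end and high numbers at the 5′ end, and genes of the same number in different clusters are paralogues. HOX proteins bind DNA together with cofactors of the TALE class, the MEIS and PBX proteins. In blood formation, genes from the middle and the 5′ part of HoxA, above all Hoxa9 and Hoxa10, are known to support stem and progenitor cells and to be silenced as cells mature. Trithorax-type complexes that contain MLL1 (Kmt2a) and menin (Men1) keep Hox genes active, and Polycomb complexes keep them silent.

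Depth was 8523556 to 8871136 reads on genes in haloperidol libraries and 8621594 to 8969046 in DMSO libraries, read from the steps of the values. The deposited unit is FPKM, fragments scaled to gene length and to a library scale, here equal to median-of-ratios size factors. Levels of different genes can be set side by side only as far as the gene lengths used hold. Ptprc, the pan-leukocyte gene Cd45, was between 39.6 and 45.5 FPKM over the 6 libraries, and Ly6a, which encodes Sca-1, between 125 and 147 FPKM. Of 11436 genes with a mean of at least 1 FPKM, 2807 (24.5%) differed between the groups in limma's moderated test at an adjusted p below 0.05, with 11.5% of the genes higher and 13.0% lower with haloperidol. Without DMSO replicate 2 the number was 1821. The first principal component separated the groups, with haloperidol libraries between 14.08 and 20.79 and DMSO libraries between -17.83 and -16.73.

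Expression of the Hox genes in LSK cells came almost wholly from the middle and 5′ part of HoxA. The genes Hoxa5, Hoxa6, Hoxa7, Hoxa9 and Hoxa10 reached a mean of 1 FPKM over the 6 libraries, and the other 33 did not. That is 13.2% of the Hox rows, against 29.4% of all rows of the table. The lowest of the 5, Hoxa6, had a mean of 2.01 FPKM, while the highest of the 33, Hoxb5, had a mean of 0.403 FPKM, so that none lay near the limit of 1. HoxA took between 97.4% and 98.6% of all Hox reads in haloperidol libraries and between 96.2% and 98.0% in DMSO libraries. Summed over its genes, HoxA reached 36.2 ± 2.13 FPKM with haloperidol and 39.7 ± 1.37 FPKM with DMSO (SD, n = 3 each), and HoxB 0.84 ± 0.277 FPKM with haloperidol and 1.03 ± 0.237 FPKM with DMSO. HoxC stayed at 0.0691 ± 0.0316 FPKM with haloperidol and 0.138 ± 0.068 FPKM with DMSO, and HoxD at 0.0198 ± 0.0213 FPKM with haloperidol and 0.354 ± 0.193 FPKM with DMSO.

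**Figure D1:**
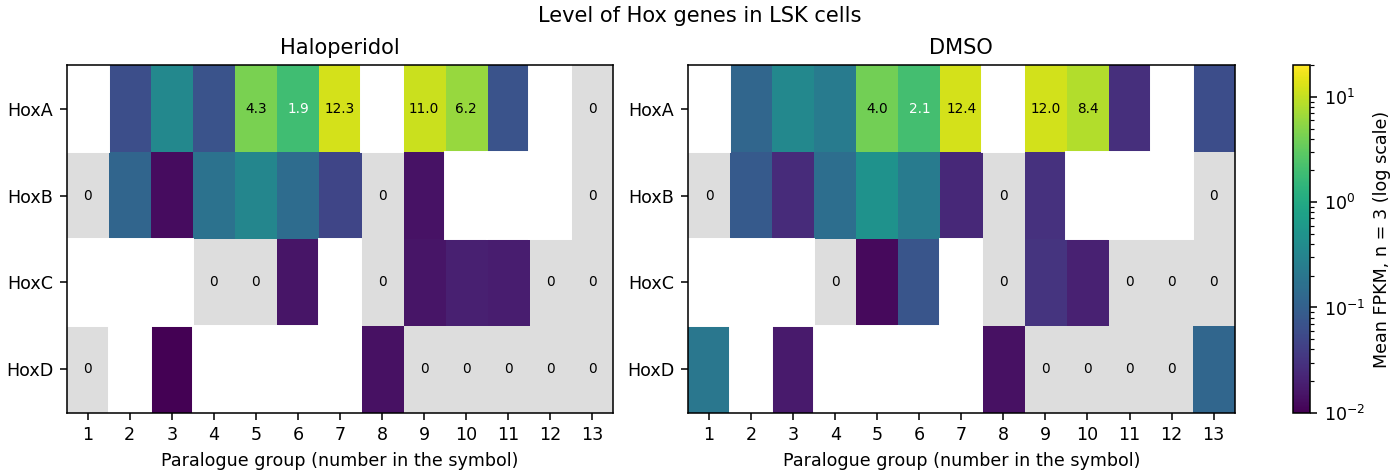
Mean FPKM (n = 3, log colour scale) of Hox genes, by cluster (rows) and number in the symbol (columns), with haloperidol on the left and DMSO on the right. Grey squares marked 0 had no read in that group, white squares show no value, and values are printed where they reach 1 FPKM, which is the case for Hoxa5, Hoxa6, Hoxa7, Hoxa9 and Hoxa10.

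By number, the pattern was a block. Genes of number 7 summed to 12.3 FPKM with haloperidol and 12.4 FPKM with DMSO, those of number 9 to 11 FPKM with haloperidol and 12 FPKM with DMSO, those of number 10 to 6.2 FPKM with haloperidol and 8.42 FPKM with DMSO, and those of number 5 to 4.61 FPKM with haloperidol and 4.51 FPKM with DMSO, each led by its HoxA member. Those of number 6, led by Hoxa6, summed to 2.09 FPKM with haloperidol and 2.4 FPKM with DMSO. On the 5′ side the level ended sharply. Hoxa11, the next gene after Hoxa10, had 1, 3 and 1 reads in haloperidol libraries and 0, 0 and 2 reads in DMSO libraries. On the 3′ side Hoxa3 had 16 to 27 reads with haloperidol and 11 to 30 reads with DMSO, or 0.348 ± 0.0873 FPKM with haloperidol and 0.345 ± 0.154 FPKM with DMSO, and Hoxa2 and Hoxa4 stayed below 0.25 FPKM on average in either group. Hoxa2 had 0, 1 and 3 reads with haloperidol and 3, 3 and 2 reads with DMSO, and Hoxa4 had 0, 3 and 0 reads with haloperidol and 6, 0 and 4 reads with DMSO, with overlap for both. These proteins pattern the hindbrain and neck in the embryo. The 3′ ends of Hoxa5 and Hoxa10 lie 39.3 and 68.8 kb from that of Hoxa2, so the expressed block covers the stretch between them.

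**Figure D2:**
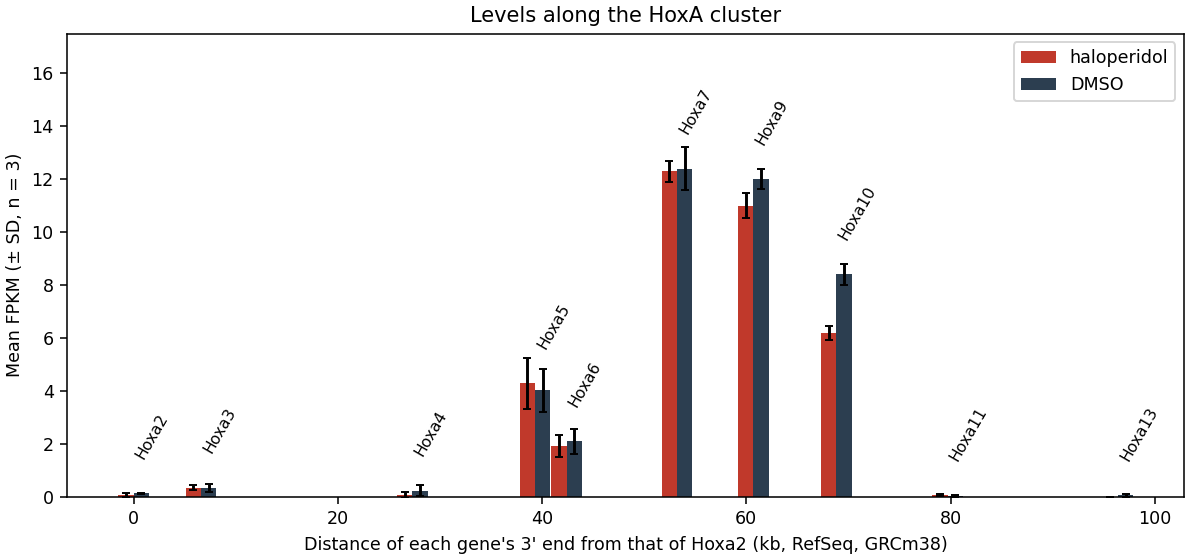
Mean FPKM (± SD, n = 3) of HoxA genes from Hoxa2 to Hoxa13 at the distance of their 3′ end from that of Hoxa2, in kb, haloperidol left of DMSO in each pair. The bars stand above 1 FPKM from Hoxa5 to Hoxa10 and near 0 on either side, and the groups part at Hoxa10.

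Among the 5 expressed genes Hoxa7 was highest in FPKM (chromosome 6, 52214491 to 52221854, GRCm38, GENCODE M21). It had 11.8, 12.5 and 12.4 FPKM in haloperidol libraries, against 12.4, 13.2 and 11.5 FPKM in DMSO libraries. The groups overlapped. Hoxa7 encodes a homeodomain factor of blood progenitors, and 55.2% of all genes tested had a lower mean, so even the highest Hox gene stood near the middle of the expressed genes. Hoxa9, a driver of progenitor self-renewal that is often overexpressed in acute myeloid leukaemia, followed (52223100 to 52231089). It had 10.4, 11.2 and 11.2 FPKM with haloperidol, against 12, 11.6 and 12.3 FPKM with DMSO. Every haloperidol library was below every DMSO library for Hoxa9. Within a library Hoxa9 was at 0.884 to 0.9 of the level of Hoxa7 with haloperidol and at 0.879 to 1.070 of it with DMSO. The order of these neighbours in FPKM held in each haloperidol library and changed in 1 DMSO library, replicate 3. In reads Hoxa9 was the higher, with 501 to 558 with haloperidol and 561 to 621 with DMSO. Hoxa7 had 292 to 320 reads with haloperidol and 299 to 329 with DMSO. The gene length recovered from the FPKM was 5583 bases for Hoxa9 and 2877 bases for Hoxa7, so their order in FPKM depends on the gene models used.

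Hoxa5 (52201754 to 52204587), a factor linked to myeloid and erythroid choice in human progenitors, had 3.59, 3.89 and 5.38 FPKM with haloperidol, against 4.96, 3.68 and 3.43 FPKM with DMSO. Hoxa6 (52206288 to 52208722), whose protein is a less studied member of the same family, had 1.95, 1.49 and 2.33 FPKM with haloperidol, against 1.68, 2.59 and 1.99 FPKM with DMSO. The groups overlapped for both genes, with 1 high library each for Hoxa5 (haloperidol replicate 3 and DMSO replicate 1). They had 23 to 90 reads in a library, and their coefficient of variation within a group was 20.4% to 22.3%, where counting alone gives 11.9% to 18.5%. For Hoxa7, Hoxa9 and Hoxa10 it was 3.2% to 6.6%, where counting alone gives 4.1% to 7.5%, so their spread was about that of counting. In FPKM the order Hoxa7, Hoxa9, Hoxa10, Hoxa5, Hoxa6 held for the means of both groups. Neighbours in that order did not overlap between libraries of a group, other than Hoxa7 and Hoxa9 with DMSO.

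Hoxa10 was the Hox gene that fell with haloperidol. It encodes a homeodomain factor that restrains differentiation of myeloid progenitors, and it lies on the minus strand of chromosome 6 (52231197 to 52240854) on the 5′ side of Hoxa9. It had 5.9, 6.4 and 6.25 FPKM in haloperidol libraries (166, 186 and 182 reads), against 8.54, 8.7 and 7.97 FPKM in DMSO libraries (249, 247 and 235 reads). The groups did not overlap, and the mean with haloperidol was 73.6% of that with DMSO. On the log2(FPKM + 1) scale the change was -0.39 (SE 0.07, 95% interval -0.56 to -0.22), with an adjusted p of 0.0068 in limma's test over all genes. The fold change on this scale understates the change of low genes. In bulk RNA, fewer cells of a type and less RNA per cell cannot be told apart.

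**Figure D3:**
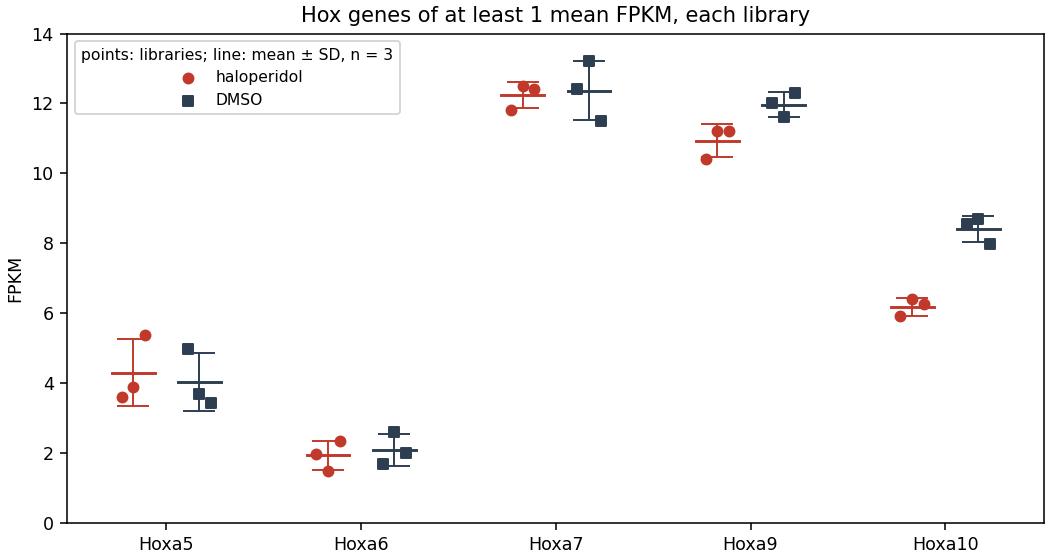
FPKM of the 5 expressed Hox genes in each library (circles haloperidol, squares DMSO), with the mean and SD of 3 libraries. The 3 haloperidol values of Hoxa10 lie between 5.9 and 6.4 FPKM, all below the DMSO values, while the groups overlap for Hoxa5, Hoxa6 and Hoxa7.

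The other 4 expressed genes did not pass the test. The log2 change was -0.12 for Hoxa9 (SE 0.06, 95% interval -0.26 to 0.03, adjusted p = 0.223), -0.01 for Hoxa7 (SE 0.07, -0.17 to 0.15), 0.07 for Hoxa5 (SE 0.16, -0.28 to 0.43) and -0.08 for Hoxa6 (SE 0.16, -0.43 to 0.28), all by limma. The direction of the last 3 turned when single libraries were left out. Thus 1 of 5 tested Hox genes fell and 0 rose, beside 24.5% called over all genes tested, and the groups did not overlap for 2 of 5, beside 43.1% of all genes, so the counts stand near the background. The median log2 change of the 5 was -0.08, beside 0.002 over all genes.

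Set against its neighbours within the same library, Hoxa10 was also lower. The ratio of Hoxa10 to Hoxa9 was 0.566, 0.569 and 0.558 in haloperidol libraries, against 0.712, 0.752 and 0.646 in DMSO libraries. The ratio of Hoxa10 to Hoxa7 was 0.5, 0.511 and 0.502 with haloperidol, against 0.687, 0.661 and 0.691 with DMSO. Neither ratio overlapped between the groups. The exact two-sided permutation test over libraries gave p = 0.10 for each, the smallest that 3 against 3 allows (0.15 adjusted over 3 ratios), so this design cannot pass 0.05. The ratio of Hoxa9 to Hoxa7 overlapped between the groups (exact permutation p = 0.40, and 0.40 adjusted). These ratios were chosen after the values were seen. Of the summed FPKM of the 5 genes, Hoxa10 took 16.6% to 18% with haloperidol and 21.4% to 21.9% with DMSO.

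RefSeq gives Hoxa10 more than one start, and the table has 1 value for the gene, so which start the reads came from was not measured. The 250 bases before both RefSeq starts of Hoxa10 and before the RefSeq start of Hoxa9, its neighbour that did not pass the test, are shown for comparison, 5′ to 3′ on the minus strand (GRCm38.p6). Capitals mark matches on either strand to 4 motifs searched in these windows, TGATNNAT for Hox and Pbx proteins bound together, TGACAG for Meis proteins, TATAAA as the TATA box and GGGCGG as the GC box. No 2 of the matches shown overlap. For Hoxa9 the annotations differ, since the RefSeq gene starts at 52227370 and the GENCODE gene extends to 52231089, so its window lies within the GENCODE gene.
Hoxa10, longer transcript, chr6:52240855-52241104: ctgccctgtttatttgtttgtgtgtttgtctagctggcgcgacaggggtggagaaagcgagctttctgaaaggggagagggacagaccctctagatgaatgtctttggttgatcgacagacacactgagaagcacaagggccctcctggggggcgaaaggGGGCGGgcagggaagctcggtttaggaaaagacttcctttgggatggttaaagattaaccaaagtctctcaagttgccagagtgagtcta
Hoxa10, shorter transcript, chr6:52234940-52235189: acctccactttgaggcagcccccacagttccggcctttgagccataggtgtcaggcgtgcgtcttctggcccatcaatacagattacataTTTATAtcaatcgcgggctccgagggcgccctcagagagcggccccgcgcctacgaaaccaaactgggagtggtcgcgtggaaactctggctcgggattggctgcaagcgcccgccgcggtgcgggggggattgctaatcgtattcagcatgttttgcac
Hoxa9, chr6:52227371-52227620: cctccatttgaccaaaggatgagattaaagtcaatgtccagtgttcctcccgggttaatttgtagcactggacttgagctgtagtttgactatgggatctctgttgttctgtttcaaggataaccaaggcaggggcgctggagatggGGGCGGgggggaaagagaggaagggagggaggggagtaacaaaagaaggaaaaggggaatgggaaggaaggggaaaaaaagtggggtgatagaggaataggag
The first Hoxa10 window and the Hoxa9 window hold 1 GC box each and the second Hoxa10 window 1 TATA box, on the opposite strand. None of the 3 holds the Hox and Pbx motif or the Meis motif. Of 32851 windows of the same length before RefSeq starts, 32.7% hold the GC box, 12.4% the TATA box, 7.7% the Hox and Pbx motif and 15.9% the Meis motif. The windows have 7, 20 and 3 CpG sites in the order shown, where the median of all windows is 6. RefSeq windows were found for 22 of the 38 Hox genes, and for all 5 of those expressed.

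The library kit keeps no strand, so reads of overlapping antisense genes cannot be told apart. In GENCODE M21, 20.4% of the exonic bases of Hoxa7 overlap the antisense gene Hoxaas3, while the exons of Hoxa5, Hoxa6 and Hoxa10 overlap no other gene and those of Hoxa9 overlap Mir196b over 1.5% of their bases. The gene length recovered from the FPKM of Hoxa10, 3270 bases, equals the GENCODE exon length. For Hoxa6 it was 1731 bases, against 874 exonic bases in GENCODE M21, so the gene model used by the authors was longer there. Among the low genes, 25.4% of the exonic bases of Hoxa3 and 16.0% of those of Hoxa4 overlap antisense genes.

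Of the 33 Hox genes below the filter, 11 had 0 reads in all 6 libraries, which allows up to 3 reads over the libraries of a group. These were Hoxb1, Hoxb8, Hoxb13, Hoxc4, Hoxc8, Hoxc12, Hoxc13, Hoxd9, Hoxd10, Hoxd11 and Hoxd12, among which Hoxb1 is best known from the hindbrain. In a further 11 no library went above 2 reads, and 11 had at least 3 reads in 1 library or more. Hoxb4, whose forced expression is known to expand stem cells, was among these, with 6, 5 and 8 reads with haloperidol and 8, 5 and 4 reads with DMSO, or 0.173 ± 0.0407 FPKM with haloperidol and 0.154 ± 0.0562 FPKM with DMSO (SD, n = 3 each). Hoxb5, a gene used to mark long-term stem cells, had 10, 4 and 10 reads with haloperidol and 21, 9 and 6 reads with DMSO. DMSO replicate 1 was high for Hoxb5, and the groups overlapped for both genes. Hoxb2 had 2 to 5 reads with haloperidol and 2 to 3 reads with DMSO, and Hoxb6 had 1 to 4 reads with haloperidol and 2 to 7 reads with DMSO. Hoxc6, the HoxC gene with the most reads, had 1, 0 and 0 reads with haloperidol and 4, 0 and 1 reads with DMSO. In Hoxb2, 27.3% of the exonic bases overlap the antisense gene Hoxb3os, so its few reads are uncertain.

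The HoxD genes had 2 reads in all with haloperidol and 22 with DMSO. Hoxd1, the 3′ gene of that cluster, had 0, 0 and 0 reads with haloperidol and 5, 2 and 3 reads with DMSO. Hoxd13, the 5′ gene, which patterns digits in the embryo, had 0, 0 and 0 reads with haloperidol and 5, 3 and 0 reads with DMSO. The DMSO libraries did not all hold reads of Hoxd13, since replicate 3 had none. Hoxd1 entered the fits with lower filters, with a log2 change of -0.26 in each. It did not pass with the filter at 0.1 FPKM (SE 0.10, limma adjusted p = 0.129), where 15.0% of 16071 genes were called, and passed with no filter (SE 0.06, limma adjusted p = 0.0471), where 9.47% of 20633 genes were called. Hoxa10 passed in both (limma adjusted p = 0.0122 and 0.0184), and none of the other Hox genes fitted passed in either. Hoxd13 had a limma adjusted p of 0.258 with no filter. Pooled over a group, the 95% Poisson interval of Hoxd1, for counting error only, was 0 to 0.0751 FPKM with haloperidol and 0.0968 to 0.371 FPKM with DMSO. That of Hoxd13 was 0 to 0.0563 FPKM with haloperidol and 0.0522 to 0.238 FPKM with DMSO, so the intervals of Hoxd13 overlapped. These differences rest on 10 and 8 reads in all.

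**Figure D4:**
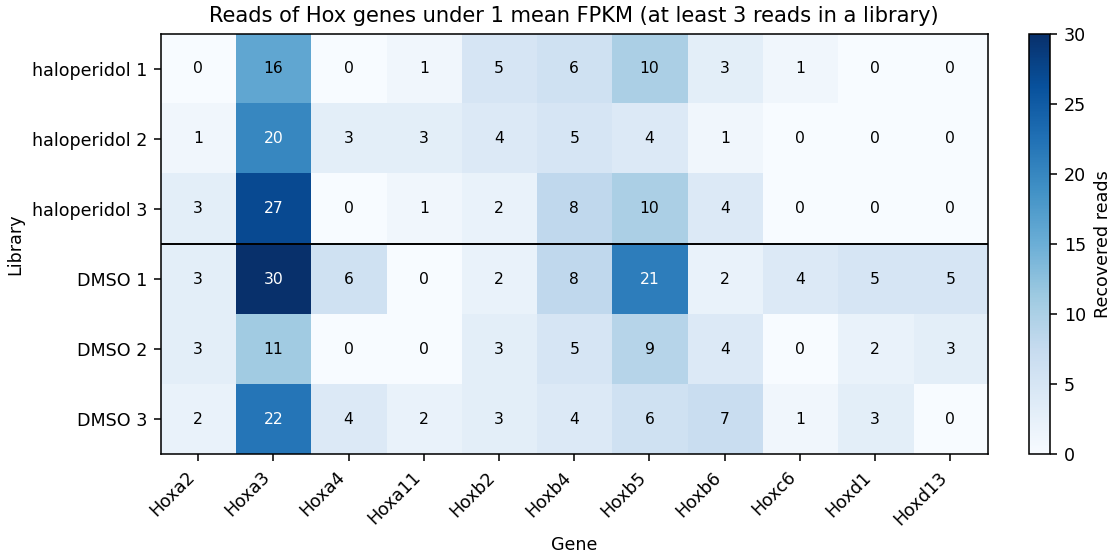
Recovered reads in each library (rows, haloperidol above DMSO) of the 11 Hox genes under 1 mean FPKM that had at least 3 reads in some library. Hoxa3 and Hoxb5 hold the most reads, and Hoxd1 and Hoxd13 have 0 reads in each haloperidol library.

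HOX proteins act with TALE cofactors, and among these Meis1 fell and Pbx4 rose. Of 9 listed genes, 6 were tested, 1 was lower, 1 higher and 4 did not pass, with a median log2 change of 0.09. Over all genes 13.0% were lower and 11.5% higher. Meis1, the partner of HOXA9 in stem cells and in leukaemia, had 19.6, 19.4 and 17.3 FPKM with haloperidol, against 26.8, 27.7 and 28.6 FPKM with DMSO. No haloperidol library reached a DMSO library (log2 change -0.54, SE 0.07, limma adjusted p = 8.96e-04). Pbx4, a PBX family gene, had 11.4, 9.61 and 10.3 FPKM with haloperidol, against 6.94, 7.35 and 8.83 FPKM with DMSO, also without overlap (0.40, SE 0.10, adjusted p = 0.0214). That call ended with no filter (limma adjusted p = 0.0638) and without DMSO replicate 1 or 2 or haloperidol replicate 1 or 3 (0.0518 to 0.0747). Pbx3, often co-expressed with HOXA9 in human leukaemia, averaged 2.02 ± 0.434 FPKM with haloperidol and 1.5 ± 0.199 FPKM with DMSO (limma adjusted p = 0.207). Pknox1 was at 10.8 ± 0.897 FPKM with haloperidol and 11.5 ± 0.897 FPKM with DMSO, and Pbx2 at 2.39 ± 0.662 FPKM with haloperidol and 2.72 ± 0.548 FPKM with DMSO. Meis3 lay at 0.737 ± 0.164 FPKM with haloperidol and 1 ± 0.189 FPKM with DMSO, and Meis2 and Pknox2 were below 0.035 FPKM in every library.

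**Figure D5:**
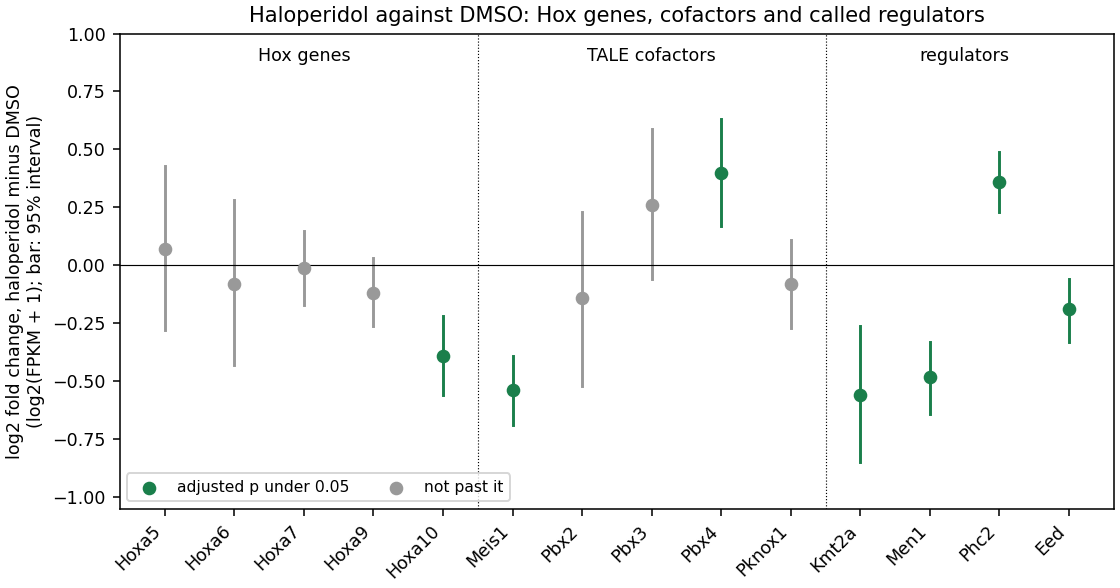
Log2 change (haloperidol minus DMSO, log2(FPKM + 1)) with its 95% interval for the 5 expressed Hox genes, 5 tested TALE cofactors and 4 regulators of Hox genes shown because they passed. Green points passed limma's adjusted p of 0.05, with Hoxa10 at -0.39, Meis1 at -0.54, Kmt2a at -0.56, Men1 at -0.48 and Eed at -0.19 below 0, and Pbx4 at 0.40 and Phc2 at 0.36 above it.

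Of 18 listed activators of Hox genes, 15 were tested, 2 fell, 0 rose and 13 did not pass, with a median log2 change of -0.08. Over all genes 13.0% fell and 11.5% rose, so this count is near the background. The caudal genes Cdx1, Cdx2 and Cdx4, which switch on Hox genes in the embryo, had 0 reads in all libraries. Kmt2a, the histone H3 lysine methyltransferase MLL1, had 2.61, 2.21 and 2.44 FPKM with haloperidol, against 4.96, 3.78 and 3.44 FPKM with DMSO. The groups did not overlap (log2 change -0.56, SE 0.13, limma adjusted p = 0.0156), but the call ended with no filter (0.0566) and without haloperidol replicate 2 (0.0523). Men1, whose protein menin tethers MLL1 to Hox loci, had 20.4, 21.7 and 19.5 FPKM with haloperidol, against 31.2, 28.7 and 27.5 FPKM with DMSO. It was lower in each haloperidol library (-0.48, SE 0.07, limma adjusted p = 0.00169). Wdr5, a core subunit of these complexes, was at 38.3 ± 1.79 FPKM with haloperidol and 34.1 ± 2.16 FPKM with DMSO (limma adjusted p = 0.0974), and Mllt3, a partner of the elongation machinery that supports human stem cells, at 2.62 ± 0.212 FPKM with haloperidol and 3.28 ± 0.205 FPKM with DMSO (0.111).

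Of 18 listed Polycomb genes and other repressors, a list that also holds the demethylase genes Kdm6a and Kdm6b, which oppose them, 17 were tested, 1 rose, 1 fell and 15 did not pass, with a median log2 change of -0.02, beside 24.5% called over all genes. Phc2, a polyhomeotic subunit of the Polycomb repressive complex PRC1, had 22.9, 23.5 and 22 FPKM with haloperidol, against 18.3, 17.3 and 17.2 FPKM with DMSO. It was higher in each haloperidol library (0.36, SE 0.06, limma adjusted p = 0.00332). Eed, which reads the repressive mark for PRC2, was at 54.9 ± 2.61 FPKM with haloperidol and 63 ± 3.52 FPKM with DMSO (-0.19, SE 0.06, limma adjusted p = 0.0457), a call that ended in 8 of 17 other settings (limma adjusted p 0.059 to 0.132), among them leaving out any library but haloperidol replicate 3. Bmi1, a PRC1 subunit needed for stem cell self-renewal, averaged 20.1 FPKM with haloperidol and 17.4 FPKM with DMSO (limma adjusted p = 0.0879), and Ezh2, the PRC2 methyltransferase, averaged 15.9 ± 0.87 FPKM with haloperidol and 18.3 ± 1.41 FPKM with DMSO (0.0961).

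Genes at the edges of the clusters did not pass the test. Of 10 listed genes with values, 5 were tested, 0 rose and 0 fell, with a median log2 change of 0.08. Over all genes tested 24.5% were called, and 5 genes are too few to set the edges apart from that share. Skap2, the adaptor gene beyond the 3′ end of HoxA, was at 158 ± 2.88 FPKM with haloperidol and 143 ± 8.1 FPKM with DMSO (limma adjusted p = 0.0689), far above any Hox gene in level. Smug1, a DNA repair gene beside HoxC, was at 4.49 ± 0.669 FPKM with haloperidol and 3.31 ± 0.234 FPKM with DMSO (0.0545). In other settings Smug1 passed in 3 of 17 (limma adjusted p 0.0422 to 0.0471) and Skap2 in 1 (0.0491). Cbx5, also beside HoxC and encoding a heterochromatin protein, was at 9.33 ± 0.404 FPKM with haloperidol and 8.8 ± 0.499 FPKM with DMSO, and Lnp, beside HoxD, at 2.57 ± 0.399 FPKM with haloperidol and 2.37 ± 0.257 FPKM with DMSO. Evx1, the homeobox gene beyond the 5′ end of HoxA, was below the filter, with 0, 0 and 5 reads with haloperidol and 4, 10 and 6 reads with DMSO. Of 17 other transcripts of the clusters found in the table, 15 had 0 reads, among them Mir10a, Mir10b, Mir196a-1, Mir196a-2, Mir196b, Mir615 and Hotair. None of the 17 reached the filter. Whether cDNA libraries of this kind hold RNAs as short as microRNAs was not tested, so 0 reads does not show that these were absent. The antisense genes Hoxa11os and Hoxb3os had reads. Hoxb3os had 7, 6 and 7 reads with haloperidol and 6, 9 and 7 reads with DMSO. Hoxa11os had 3, 3 and 2 reads with haloperidol and 0, 1 and 0 reads with DMSO, without overlap. It did not pass with no filter (limma adjusted p = 0.111). Since 35.0% of the exonic bases of Hoxa11 lie antisense to Hoxa11os, reads of these genes cannot be told apart.

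Several genes known as targets of HOXA9 and MEIS1 in mouse blood cells fell, Lmo2 and Myb with the smallest p. Of 16 tested, of which Flt3, Cd34 and Kit are also listed below for LSK cells, 7 fell, 2 rose and 7 did not pass. The median log2 change was -0.23, beside 13.0% lower and 11.5% higher over all genes. The list was chosen with earlier results of these data known, so its counts are no test of HOXA9 or MEIS1 activity. Myb, a transcription factor of progenitor growth, had 88.5, 79.9 and 73.8 FPKM with haloperidol, against 129, 146 and 137 FPKM with DMSO. It was lower in each haloperidol library (-0.76, SE 0.07, limma adjusted p = 3.57e-04). Lmo2, an adaptor of stem cell transcription complexes, had 332, 326 and 311 FPKM with haloperidol, against 490, 472 and 473 FPKM with DMSO (-0.57, SE 0.05, limma adjusted p = 1.42e-04). Sox4, an HMG-box factor, was at 102 ± 14.4 FPKM with haloperidol and 145 ± 5.59 FPKM with DMSO (limma adjusted p = 0.00538). The others that fell were Cd34, Erg, Pim1 and Trib2, of which the call for Cd34 ended with no filter and without DMSO replicate 2, and that for Erg in 4 settings. Id2, an inhibitor of basic helix-loop-helix factors, went the other way, at 15.1 ± 1.98 FPKM with haloperidol and 10.4 ± 0.606 FPKM with DMSO (0.50, SE 0.09, limma adjusted p = 0.00672). Flt3, the receptor gene of multipotent progenitors, was at 116 ± 5.21 FPKM with haloperidol and 103 ± 2.36 FPKM with DMSO (limma adjusted p = 0.0484), a call that ended in 12 of 17 other settings.

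The gate and the other cells it could hold were read from marker lists, and their part in the changes of Hoxa10 and Meis1 was not tested. Each count of markers that rose or fell stands beside 24.5% called over all genes tested, 11.5% higher and 13.0% lower. Of 8 genes listed for LSK cells, 2 rose (Ly6e and Flt3) and 2 fell (Cd34 and Cd48), with a median log2 change of -0.06. Ly6e is not the gene of Sca-1. Ly6a, which is, was at 138 FPKM with haloperidol and 136 FPKM with DMSO (limma adjusted p = 0.861). The summed level of the 8 was 1688 to 1794 FPKM with haloperidol and 1721 to 1787 FPKM with DMSO. Its 2 highest genes moved in opposite directions, so the sum does not show an unchanged gate. Ly6e was at 653 ± 42.9 FPKM with haloperidol and 548 ± 7.72 FPKM with DMSO. Cd34 was at 557 ± 19.4 FPKM with haloperidol and 648 ± 24.7 FPKM with DMSO. Cd48 was at 163 ± 6.13 FPKM with haloperidol and 191 ± 14.5 FPKM with DMSO, and Slamf1, a marker of stem cells, at 1.14 ± 0.2 FPKM with haloperidol and 1.81 ± 0.202 FPKM with DMSO (limma adjusted p = 0.0572). The call for Ly6e ended with no filter (limma adjusted p = 0.0577), without DMSO replicate 2 (0.0581) and without haloperidol replicate 1 (0.0513). The calls for Cd48 and for the stromal and endothelial genes named below ended in 8, 5 and 9 of 17 other settings. Kit was at 81 ± 9.78 FPKM with haloperidol and 87.8 ± 7.38 FPKM with DMSO (0.396). Of 16 markers of lineage-positive cells 9 were tested and 1 fell, the B cell gene Cd79a, at 0.752 ± 0.216 FPKM with haloperidol and 2.22 ± 0.567 FPKM with DMSO, and the median log2 change was 0.16. Their summed level was 2673 to 3547 FPKM with haloperidol and 2206 to 2921 FPKM with DMSO, most of it the globin genes Hbb-bs and Hba-a1, and none of the 16 was at 0 in all libraries. Hbb-bs was at 1904 ± 265 FPKM with haloperidol and 1489 ± 188 FPKM with DMSO (limma adjusted p = 0.0589). Mesenchymal cells of the limb are known to express 5′ Hox genes. Of 15 markers of stromal, bone and cartilage cells 4 were tested and 1 rose, Pdgfrb, at 16.9 ± 1.42 FPKM with haloperidol and 13 ± 1.52 FPKM with DMSO. The tested genes had a median log2 change of 0.24, and the list had summed levels of 42.2 to 45.2 FPKM with haloperidol and 36.9 to 40.7 FPKM with DMSO. Its levels were uneven. Bglap and Acan had 0 reads, Col1a1 was at or below 0.0342 FPKM and Prrx1 at or below 0.0305 FPKM in every library. Cxcl12, in contrast, was at 15.2 ± 0.951 FPKM with haloperidol and 15.3 ± 3.67 FPKM with DMSO, and Runx2 at 8.9 ± 0.36 FPKM with haloperidol and 8.09 ± 0.552 FPKM with DMSO. Lepr was at 1.79 ± 0.233 FPKM with haloperidol and 1.13 ± 0.242 FPKM with DMSO, without overlap (limma adjusted p = 0.0766), and Col1a2 at 0.515 ± 0.131 FPKM with haloperidol and 0.406 ± 0.0753 FPKM with DMSO. Of 6 endothelial markers 3 were tested and 1 fell, Emcn, at 3.83 ± 0.276 FPKM with haloperidol and 4.92 ± 0.06 FPKM with DMSO. The tested genes had a median log2 change of -0.03, and the list had summed levels of 19 to 20.7 FPKM with haloperidol and 20.7 to 21.1 FPKM with DMSO. Kdr, a receptor gene of endothelial cells below the filter, had 0, 2 and 3 reads with haloperidol and 17, 12 and 14 reads with DMSO, without overlap. Kdr did not pass with the filter at 0.1 FPKM (limma adjusted p = 0.116) and passed with no filter (limma adjusted p = 0.0209). The rest of the endothelial list did not pass. The log2 change was 0.02 for Pecam1, -0.03 for Tek and, with no filter, -0.05 for Vwf. Cdh5 had 1, 0 and 2 reads with haloperidol and 0, 0 and 0 reads with DMSO.

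Of all genes tested, the 4 whose log2 values over the 6 libraries were most like those of Hoxa7, the highest Hox gene, were Psmg4 (Pearson r 0.977), Gamt (0.972), Gm15298 (0.962) and Gm4604 (0.949). The 6 points share their libraries and scale, and no other Hox gene was among the 4. These r were picked as the highest among 11436 genes over only 6 points, so values this high can arise without any link. None of them passed the test between the groups, with Psmg4 at 70.9 ± 1.31 FPKM with haloperidol and 71.8 ± 3.83 FPKM with DMSO.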

How the data were processed

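The authors deposited FPKM of 38926 genes in 6 libraries. TopHat2 2.1.1 and HTSeq 0.6.1 are named, with DESeq2 1.18.1 and mm10, per the submitters' processing notes, without their roles. How genes were annotated and reads counted is not given in the sources used here. Per the labels' protocols, cDNA came from a SMART-Seq kit and libraries from a Nextera kit, which keep no strand.

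FPKM values were whole multiples of 1 read per gene and library for 100.0% of genes above 0 (within 0.001 reads), on a library scale equal to median-of-ratios size factors. Reads were recovered from these steps for depth, low genes and 1 added setting. A common factor was restored for 400 genes from whole gene lengths, and for Hoxa13 from its GENCODE length. Reads of PCR libraries are not independent molecules, so floors (3 reads per group) and intervals cover counting error only.

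Genes of at least 1 mean FPKM were tested on log2(FPKM + 1) with limma 3.58.1 (R 4.3.3, trend in the prior variance, no covariate, two-sided, Benjamini-Hochberg over 11436 genes, threshold 0.05). The procedure was also run on simulated data with the same spread beyond counting for every gene. That run does not show how the test performs on these libraries. Members and lists were chosen with earlier results of these data known. Named are each expressed Hox gene, Hox genes with at least 3 reads in a library, Meis1, Pbx3, up to 4 genes of smallest p per list and the 5 genes most like the highest Hox gene. Some genes under this rule are not reported here. Any other gene named was chosen after its values were seen.

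Replicate numbers are shared between the groups, but deviations of same-numbered libraries correlated at 0.01 to 0.05, so the fit has no block. Other settings were pseudocounts of 0.1 and 0.01, a filter at 0.1 FPKM or none, scaling to a common sum or upper quartile, quantile normalization, robust prior variance, sample quality weights, each library left out, a replicate block and, chosen after seeing the data, voom on the recovered reads.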

Additional observations from a re-analysis of the deposited data

How the results depend on the processing

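The fall of Hoxa10 kept its direction and passed the threshold in all 17 other settings, with log2 changes from -0.44 to -0.36 and limma adjusted p from 0.00449 to 0.0326. Hoxa9 did not pass in any of the 17 (-0.14 to -0.08). The number of Hox genes called was 1 in all settings but that with no filter on low values, where it was 2 (Hoxa10 and Hoxd1). Hoxd1 was also fitted with the filter at 0.1 FPKM and did not pass there (limma adjusted p = 0.129). Leaving out 1 library at a time it was 1 to 1, and the number of all genes called was 1821 to 2148. Of the 3 other expressed genes, none of which passed in any setting, the sign turned when single libraries were left out, for Hoxa5 (-0.01 without DMSO replicate 3 and -0.07 without haloperidol replicate 3, range -0.07 to 0.20), Hoxa6 (0.04 without DMSO replicate 2 and 0.03 without haloperidol replicate 2, range -0.18 to 0.04) and Hoxa7 (0.03 without DMSO replicate 2 and 0.01 without haloperidol replicate 1, range -0.06 to 0.03). The cause was not tested. The pairing by replicate number, which the deviations do not show (best match with the own number in 1 of 3), gave 2552 genes and 1 Hox gene with a replicate block, and it ended the calls for Cd48 (limma adjusted p = 0.0566), Emcn (0.0655) and Flt3 (0.0576). With voom on the recovered reads Mllt3 (limma adjusted p = 0.0173), Ezh2 (0.0444), Skap2 (0.0491) and Smug1 (0.0422) passed as well. Scaling moved the median of all genes by less than 0.02. Depth limits the 33 Hox genes below the filter, for which differences of a few reads are not detectable.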
